A study of Mus musculus with 3 samples.

Results

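Mitochondrial ribosomal protein genes were taken as every gene model of the deposited tables whose name starts with Mrpl or Mrps followed by a digit, with repeated names and pseudogene names left out, which gave 76 of 22658 models. They were followed in nascent RNA of the mouse pancreatic cancer cell line NB490, selected with puromycin for stable expression of a doxycycline-inducible PDX1 shRNA. The 3 libraries came from uninduced cells (0 h of doxycycline), cells after 48 h of doxycycline, and grown-out cells, kept in the drug for more than 3 weeks. All 3 carried the shRNA construct, and doxycycline and the shRNA were switched on together, so that their effects cannot be told apart. RNA was tagged with 2 mM bromouridine for 30 min and pulled down before sequencing (Bru-seq), so a read count reports RNA made in that window rather than the stored mRNA. Each condition had 1 library, and no difference below has a replicate check or a p-value.

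The mitochondrial ribosome translates the few proteins encoded by mitochondrial DNA, all of them subunits of the respiratory chain and ATP synthase. Its RNAs come from mitochondrial DNA, but each of its proteins is encoded in the nucleus, made in the cytosol and imported. Genes named Mrpl encode proteins of the large subunit and genes named Mrps mostly proteins of the small subunit. Mrps30 and Mrps18a are exceptions that sit in the large subunit, and the product of Mrps36 belongs to the 2-oxoglutarate dehydrogenase complex and not to the ribosome. Many of the proteins have a bacterial counterpart, while others were added during the evolution of mitochondria. Doxycycline is a tetracycline, a class of antibiotics that bind bacterial ribosomes and are also known to slow translation by the mitochondrial ribosome.

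The library totals, recovered from the deposited counts and RPKM, were 51006774 reads (uninduced), 48418864 reads (48 h) and 41632296 reads (grown-out). The unit is RPKM, reads scaled to the length of the gene model and to the total reads of the library, over introns and exons together. Values are therefore relative to the library, and a change in the RNA made per cell or in the number of cells cannot be told apart from no change. Levels and ratios carry 95% intervals from the read counts, which cover counting error only. Pdx1, the shRNA target, had 1.59, 1.05 and 1.41 RPKM uninduced, at 48 h and grown-out, and an shRNA acts on finished mRNA, which these values do not measure. Of the epithelial markers, Krt8, Krt18, Krt19 and Cdh1 had between 4.63 and 15.1 RPKM, whereas Epcam had 0.0984, 0.0736 and 0.0270 RPKM uninduced, at 48 h and grown-out. Krt19, a keratin of duct cells, stood at 13.6, 8.01 and 10.1 RPKM in that order. It was 1.70-fold lower (1.53 to 1.89) at 48 h than uninduced, and its part in the differences of the members was not tested. Of the fibroblast, endothelial and acinar markers none reached a mean of 0.5 RPKM, and of the immune markers Cd68 alone did, at 0.994, 0.916 and 0.901 RPKM uninduced, at 48 h and grown-out.

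Mitochondrial ribosomal protein genes were transcribed at moderate and similar levels. A gene was measured where its mean over the 3 libraries was at least 0.5 RPKM and its model at least 300 bp, which 72 of the 76 members and 7915 of all models met. The members' median level was 1.45 RPKM in uninduced, 1.53 RPKM in 48 h and 1.45 RPKM in grown-out cells, against 1.64, 1.60 and 1.64 RPKM over all measured genes. The members' levels were spread over a narrower range: the 90th percentile of mean RPKM was 4.34 times the 10th among members and 8.64 times among all measured genes. It was 4.37 times among cytosolic ribosomal protein genes, 5.84 among oxidative phosphorylation subunits, 2.67 among mitochondrial translation factors and 12.2 among ribosome biogenesis genes. A range narrower than that of all measured genes was thus not particular to the members. By mean level 46 members lay between 1 and 3 RPKM, 18 below and 8 above. Together the 76 members held 0.178%, 0.189% and 0.177% of the gene model reads uninduced, at 48 h and grown-out.

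The highest member was Mrpl33, a large subunit protein with a bacterial counterpart, at 4.84 RPKM (4.64 to 5.05) in uninduced, 4.34 RPKM (4.14 to 4.54) in 48 h and 4.32 RPKM (4.11 to 4.54) in grown-out cells. Next came Mrps18b of the small subunit, with 4.41, 4.30 and 4.78 RPKM uninduced, at 48 h and grown-out. The large subunit genes Mrpl18 and Mrpl32 followed, Mrpl18 with 4.22, 4.18 and 4.28 RPKM and Mrpl32 with 4.54, 4.04 and 3.68 RPKM in the same order. The order of these 4 genes differed between libraries, and Mrpl51, at 4.36 RPKM in grown-out cells, was among them there, so no fixed rank can be read. At the other end by mean level Mrpl55 had 0.501, 0.527 and 0.572 RPKM uninduced, at 48 h and grown-out, on 89, 89 and 83 reads. Mrpl38 had 0.623, 0.665 and 0.559 RPKM, Mrpl37 had 0.638, 0.691 and 0.627 RPKM, and Mrpl4 had 0.646, 0.738 and 0.575 RPKM in the same order. The intervals of these 3 genes overlapped in every library. Mrpl55 was not the lowest in each library, since Mrps26 had 0.361 RPKM uninduced and Mrps34 had 0.473 RPKM grown-out. The 4 members below the minimum were Mrpl48, at 0.438 to 0.507 RPKM, and Mrps12, Mrpl54 and Mrpl41, at 0.348 to 0.510 RPKM.

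The proteins of the mitochondrial ribosome are mostly present once per particle, and Mrpl12, which forms the flexible stalk that recruits translation factors, is an exception with several copies. Mrpl12 was not among the highest genes, with 1.78, 1.89 and 2.11 RPKM uninduced, at 48 h and grown-out, at rank 24 of 72 by mean level. Mrps18a, Mrps18b and Mrps18c are 3 related genes that derive from 1 bacterial small subunit protein. Mrps18a had 1.06, 1.27 and 1.01 RPKM, below Mrps18b in every library, and Mrps18c had 3.49, 3.51 and 2.47 RPKM in the same order. The intervals of the 3 genes did not overlap in any library. Across members, mean level and model length showed a Spearman correlation of 0.081 over 72 genes, given as a description of genes that share the same libraries.

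**Figure D1:**
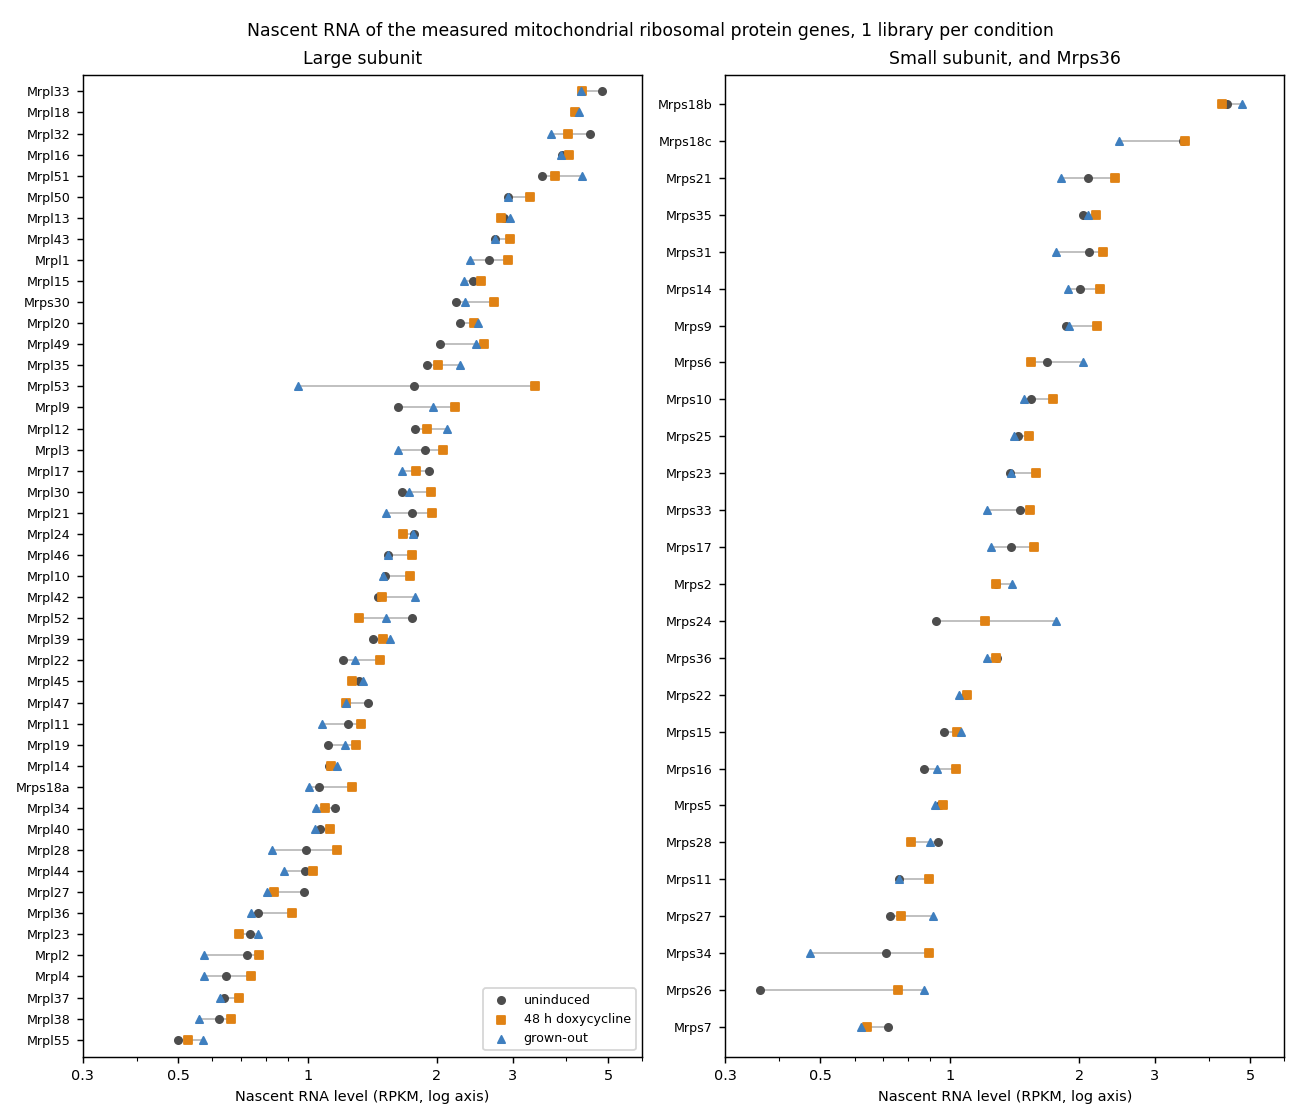
Nascent RNA level of each measured mitochondrial ribosomal protein gene in RPKM on a log axis, with the large subunit on the left and the small subunit and Mrps36 on the right, sorted by mean level. Each gene has 1 point for the uninduced (circle), 48 h (square) and grown-out (triangle) library joined by a line; most lines are short, and Mrpl53, Mrps26, Mrps24 and Mrps34 have the long ones.

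After 48 h of doxycycline the members were, by their median, slightly higher than in uninduced cells. A member counts as beyond counting error where the 95% interval of its ratio of RPKM excludes 1. By that rule 24 of 72 members were higher and 5 lower at 48 h, and 43 were neither. Over all measured genes 30.1% were higher and 30% lower by the same rule, so the members' share of higher genes, 33.3%, lay near the background and their share of lower genes, 6.94%, below it. The members' median log2 ratio of RPKM plus 0.05 was 0.091, against 0.0029 over all measured genes, and 54 of the 72 ratios were above 0. Members are shorter than most genes and had fewer reads, a median of 594 at 48 h and 605 uninduced, against 1896 and 2038 over all measured genes, so that a given ratio has a wider interval for most members.

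The largest ratios at 48 h belonged to a pair of short genes with few reads, both encoding proteins without a bacterial counterpart. Mrps26, of the small subunit, had 0.757 RPKM (0.577 to 0.974) at 48 h and 0.361 RPKM (0.242 to 0.513) uninduced. It was 2.09-fold higher (1.34 to 3.38), on 60 reads at 48 h and 30.2 uninduced. Mrpl53, of the large subunit, had 3.37 RPKM (2.81 to 3.99) at 48 h and 1.77 RPKM (1.38 to 2.22) uninduced. It was 1.91-fold higher (1.42 to 2.57), on 132 reads at 48 h and 73.2 uninduced. These 2 were the members past 1.5-fold, meaning a log2 ratio of at least that size besides an interval without 1. Among all measured genes 0.379% were higher and 3.27% lower past 1.5-fold.

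The other higher members with the firmest bounds differed by much less. Mrpl9, a large subunit protein with a bacterial counterpart, had 2.21 RPKM at 48 h and 1.62 RPKM uninduced, a ratio of 1.36 (1.20 to 1.54). Mrpl49 of the large subunit had 2.57 RPKM at 48 h and 2.03 RPKM uninduced, a ratio of 1.27 (1.11 to 1.45). Mrps30, a mitochondria-specific protein that was first described as a cell death protein, had a ratio of 1.23 (1.12 to 1.35) and Mrps9 one of 1.18 (1.14 to 1.23). Mrps9 rests on 5807 reads at 48 h and 5171 uninduced, which makes its interval one of the narrowest. The 5 lower members differed by little as well. Mrpl52 was 1.33-fold lower (1.10 to 1.62), at 1.31 RPKM at 48 h and 1.75 RPKM uninduced. Mrps28 was 1.16-fold lower (1.12 to 1.21) and Mrpl33 1.11-fold lower (1.05 to 1.19). Mrps6 was 1.09-fold lower (1.03 to 1.16). Mrpl47 was lower as well, at a ratio of 0.889 (0.792 to 0.997), a bound so near to 1 that the call was lost when library sizes were set by TMM or by DESeq2 size factors instead of total reads.

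In grown-out cells the members lay on both sides of the uninduced level. Of 72 members 12 were higher and 14 lower beyond counting error, against 33.6% higher and 29.5% lower of all measured genes. The median log2 ratio was -0.018, against 0.0082 over all measured genes, and 32 of 72 ratios were above 0. With library sizes set by TMM or DESeq2 size factors the members' median was 0.0086 or 0.022 and that of all genes 0.035 or 0.049. The members' median thus lay 0.026, 0.027 and 0.027 below that of all genes under total reads, TMM and size factors. Past 1.5-fold, 2 members were higher and 1 lower, with 1.07% higher and 2.93% lower among all measured genes.

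Mrps26 had 0.870 RPKM (0.659 to 1.12) in grown-out cells on 59.3 reads, against 0.361 RPKM uninduced, a ratio of 2.41 (1.53 to 3.87). Both comparisons set Mrps26 against the same 30.2 uninduced reads, so its ratios to uninduced at 48 h and in grown-out cells share that low value. Mrps24, a small subunit protein with a bacterial counterpart, had 1.77 RPKM (1.56 to 1.99) in grown-out cells and 0.929 RPKM (0.796 to 1.08) uninduced, a ratio of 1.90 (1.57 to 2.31) on 273 and 176 reads. At 48 h Mrps24 had 1.21 RPKM (1.05 to 1.38), between the other 2 values. Mrpl53 had 0.951 RPKM (0.648 to 1.34) in grown-out cells, on 32.1 reads, and was 1.86-fold lower than uninduced (1.21 to 2.92). Of its 3 values the highest was thus at 48 h and the lowest in grown-out cells, and no pair of the 3 intervals overlapped.

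Below 1.5-fold, the differences of grown-out cells named here were spread over both subunits. Mrps27, a small subunit protein with RNA-binding repeats, had 0.916 RPKM in grown-out and 0.725 RPKM in uninduced cells, a ratio of 1.26 (1.20 to 1.33). Mrps6 had 2.04 RPKM in grown-out and 1.68 RPKM in uninduced cells, a ratio of 1.21 (1.14 to 1.29). Mrpl42 had a ratio of 1.22 (1.14 to 1.31) and Mrpl35 one of 1.20 (1.09 to 1.30). Mrpl12, followed for its role and not for its bound, had a ratio of 1.19 (1.02 to 1.37), and Mrpl51, Mrpl49 and Mrpl9 had higher lower bounds, at 1.08, 1.06 and 1.06. These are genes of both subunits, and none of them reached 1.5-fold. On the lower side Mrps18c had 2.47 RPKM (2.28 to 2.68) in grown-out and 3.49 RPKM (3.28 to 3.71) in uninduced cells, which makes it 1.41-fold lower (1.27 to 1.57). Its relative Mrps18b had a ratio of 1.08, with a lower bound just over 1, and Mrps18a one of 0.951 (0.864 to 1.05). Mrps18c was the firmest lower member, and its relatives did not share its difference in size. Mrpl32 had a ratio of 0.811 (0.714 to 0.917) and Mrps31 was 1.19-fold lower (1.11 to 1.28). The large subunit genes Mrpl3 and Mrpl1 were 1.15-fold (1.08 to 1.23) and 1.11-fold (1.07 to 1.15) lower.

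**Figure D2:**
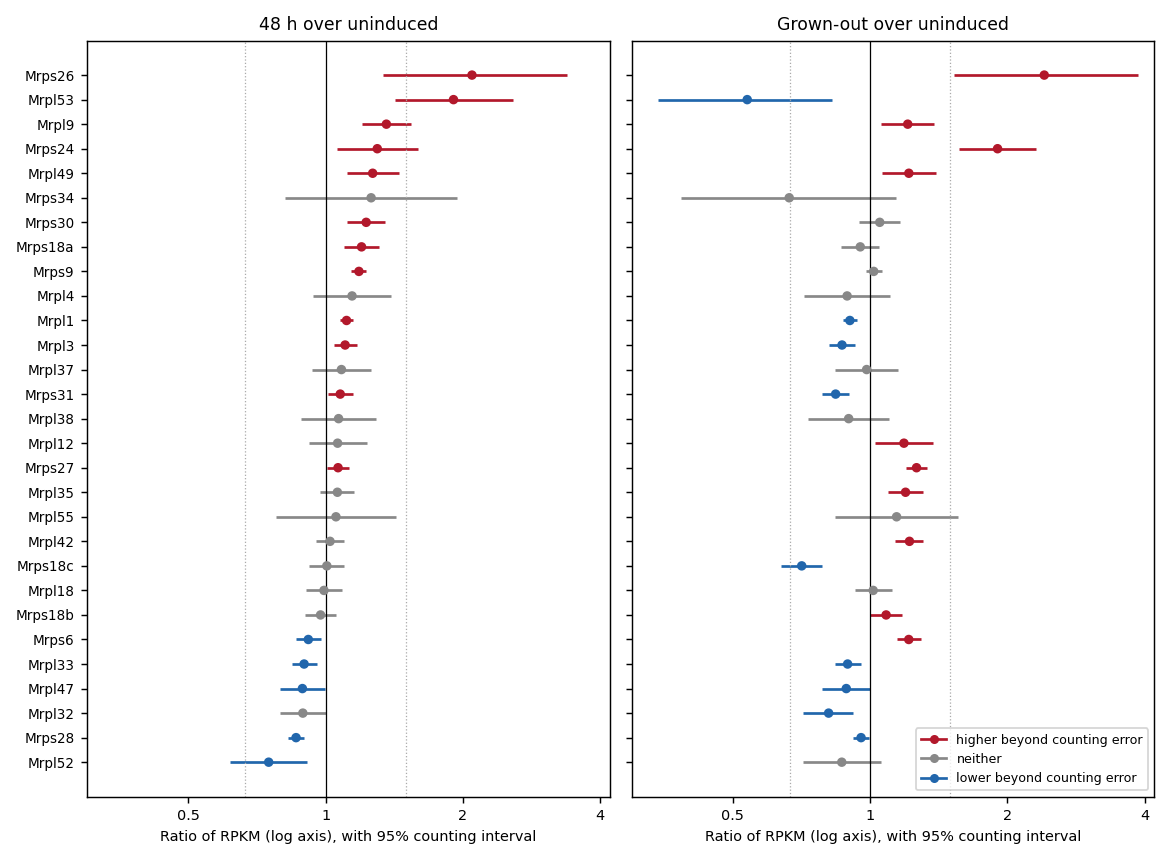
Ratio of RPKM for 29 members, 48 h over uninduced on the left and grown-out over uninduced on the right, on log axes with 95% counting intervals as bars and dotted lines at 1.5-fold in each direction. Colour marks members higher (red) or lower (blue) beyond counting error and those that were neither (grey); Mrpl53 lies right of 1 at 48 h and left of 1 in grown-out cells, and both panels share the uninduced library.

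Grown-out cells were also set against 48 h cells. This comparison uses libraries that already served above, so a gene high at 48 h tends to come out low here, and the values are no separate evidence. Of 72 members 8 were higher and 27 lower in grown-out than in 48 h cells, against 35.6% higher and 32% lower of all measured genes. The median log2 ratio was -0.11, against 0.0090 over all measured genes, and 22 of 72 ratios were above 0. Oxidative phosphorylation subunits had 6 of 72 higher and 29 lower here (median -0.093). Cytosolic ribosomal protein genes had 15 of 77 higher and 27 lower (median -0.055). Ribosome biogenesis genes went the other way, with 21 of 26 higher and 0 lower (median 0.28). Mrpl53 was 3.55-fold lower (2.40 to 5.40), at 0.951 RPKM in grown-out and 3.37 RPKM in 48 h cells. Mrps34, a small mitochondria-specific protein gene with a 1154 bp model, was 1.89-fold lower (1.12 to 3.21), at 0.473 RPKM in grown-out and 0.895 RPKM in 48 h cells, on 22.7 and 50.0 reads. No member was higher past 1.5-fold, with 3.59% higher and 2.25% lower among all measured genes.

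Counts by subunit read against 30.1% higher and 30% lower of all measured genes at 48 h, and 33.6% and 29.5% in grown-out cells against uninduced. For grown-out against 48 h cells the shares over all measured genes were 35.6% higher and 32% lower. At 48 h the large subunit had 14 of 46 measured members higher and 3 lower beyond counting error (median log2 ratio 0.088), and the small subunit 10 of 25 higher and 2 lower, with a median of 0.096. In grown-out cells 7 of 46 large subunit members were higher and 9 lower, and 5 of 25 small subunit members were higher and 5 lower. Both higher members past 1.5-fold there, Mrps26 and Mrps24, belong to the small subunit. In grown-out against 48 h cells 3 of 46 large subunit members were higher and 16 lower (median -0.11), and 5 of 25 small subunit members were higher and 11 lower (median -0.11). Mrps36, which is not a ribosomal protein, had 1.29, 1.28 and 1.22 RPKM uninduced, at 48 h and grown-out and was neither higher nor lower in any comparison. Proteins with a bacterial counterpart had a median log2 ratio of 0.088 at 48 h (14 of 47 higher, 4 lower), and those without one 0.096 (10 of 24 higher, 1 lower). In grown-out cells the medians were -0.038 (6 of 47 higher, 11 lower) and -0.0021 (6 of 24 higher, 3 lower). No difference between these groups was tested.

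The 4 members past 1.5-fold in any comparison, Mrps26, Mrpl53, Mrps24 and Mrps34, were among the 18 with a model under 4000 bp. Of all measured genes that short, 24.6% were past 1.5-fold in at least 1 comparison, so that 4 of 18 lay near the background. Of the 34 members from 4000 to 10000 bp and the 20 longer ones 0 were, against 13.8% and 5.88% of all measured genes of those lengths. Short models gather few intron reads, and 3 of these 4 genes had fewer than 100 reads in their shallowest library. Among the 54 members with at least 200 reads in every library, a cutoff chosen after seeing the data, 0 were past 1.5-fold in each of the 3 comparisons. At 48 h 21 of those 54 were higher and 4 lower by the interval rule, and their median log2 ratio was 0.085. The part of low counts in the larger ratios was not tested beyond these values.

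**Figure D3:**
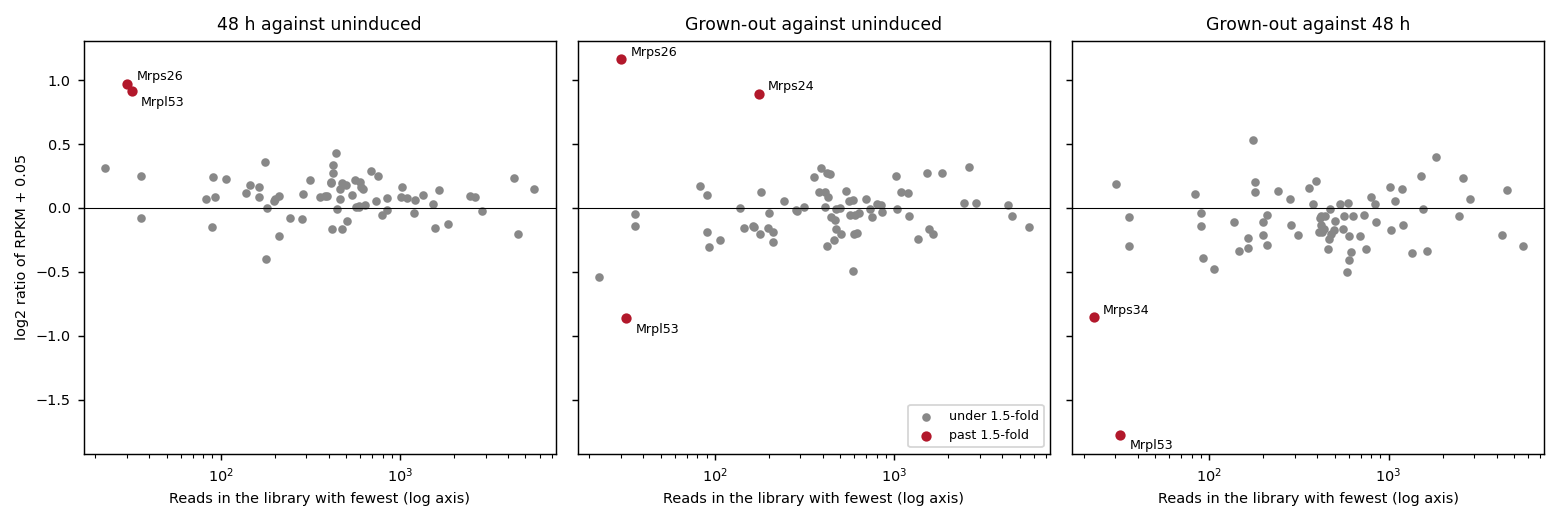
Log2 ratio of RPKM plus 0.05 for each measured member against its reads in the library with fewest, on a log axis, 1 panel for each comparison. Members past 1.5-fold (red) are Mrps26, Mrpl53, Mrps24 and Mrps34, which all lie at under 200 reads, while members with at least 200 reads in every library stay within 0.5 of 0 in each panel.

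Neighbouring transcription can enter the value of a short gene in nascent RNA. A model on the same strand ended within 5000 bp upstream of 10 members, and for 5 of them that neighbour was measured. Mrpl53 starts next to Ccdc142, with 14 bp between the models and a deposited length of 811 of its 825 bp span. Ccdc142 had 0.248, 0.228 and 0.231 RPKM uninduced, at 48 h and grown-out, and the part of read-through from it in the Mrpl53 values was not tested. Spsb3, 2972 bp upstream of Mrps34, had 0.312, 0.275 and 0.373 RPKM in the same order. The counted part of Mrps6, 24754 bp of a 53892 bp gene span, directly adjoins the model of Slc5a3. How the rest of that span lies to Slc5a3 was not examined. Slc5a3, a transporter gene, had 4.41, 3.47 and 4.75 RPKM and Mrps6 had 1.68, 1.54 and 2.04 RPKM uninduced, at 48 h and grown-out, so both were lowest at 48 h and highest in grown-out cells. The part of read-through from Slc5a3 in the Mrps6 values was not tested. Mrps24 and Mrps26 had no such neighbour.

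Head-to-head arrangement with another gene was common. A start site on the opposite strand lay within 1000 bp for 24 of the 72 measured members, 33.3%, compared with 18.7% of all measured genes. In 19 pairs both genes were measured and pointed away from each other, with 37 to 614 bp (median 137 bp) between the start sites. Several partners serve mitochondria too: Mrpl43 faces Peo1, the mitochondrial DNA helicase gene, and Mrpl47 faces Ndufb5, a complex I subunit gene. Mrpl49 faces Fau, whose product includes a cytosolic ribosomal protein. The partners' log2 ratios at 48 h had the sign of the member's in 9 of 19 pairs, and in 11 of 19 pairs in grown-out cells against uninduced. Over the 19 pairs the Spearman correlation between member and partner was -0.032 for the log2 ratio at 48 h, 0.19 for grown-out against uninduced, and 0.46 for mean RPKM, each a description over genes from the same libraries. Mrps18c, for example, was 1.41-fold lower in grown-out cells, while its partner Helq had a log2 ratio of -0.033.

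In 1 pair both genes were members. Mrpl46 of the large subunit and Mrps11 of the small subunit lie head to head on chromosome 7, with 42 bp between their start sites in the deposited models. Mrpl46 had 1.54, 1.75 and 1.54 RPKM and Mrps11 had 0.760, 0.892 and 0.763 RPKM uninduced, at 48 h and grown-out. Both were therefore highest at 48 h and near the uninduced level in grown-out cells. The 48 h over uninduced ratio was 1.13 (1.01 to 1.27) for Mrpl46 and 1.17 (1.02 to 1.35) for Mrps11, and the grown-out over uninduced ratio was 1.00 (0.888 to 1.13) for Mrpl46 and 1.00 (0.862 to 1.17) for Mrps11.

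Promoter sequence was read from RefSeq windows of build GRCm38.p6 that run from 250 bases before to 50 bases after a gene's start, which were found for 67 of the 76 members (73 windows). Genes of the mitochondrial ribosome are known as targets of the factors NRF1, GABPA and YY1, which act on many nuclear genes for mitochondria. Letters searched on both strands were GCGCA, any base and GCGC in a row for NRF1, CCGGAAG for ETS factors such as GABPA, AAGATGGCG for YY1, CACGTG for the E-box bound by MYC and others, and TATAAA for the TATA box. The NRF1 letters were in 16.4% of member windows, the ETS letters in 32.9% and the YY1 letters in 11.0%. Over all 32851 windows the shares were 4.60%, 8.86% and 1.403%, and over windows of measured genes 11.9%, 20.3% and 3.72%. The E-box was in 9.59% of member windows, against 10.5% of those of measured genes and 7.15% of all, and the TATA box in 6.85%, against 6.91% and 13.6%. Members with and without any NRF1, ETS or YY1 match had median log2 ratios of 0.085 (37 members) and 0.094 (27 members) at 48 h. In grown-out cells against uninduced, 10 of the 37 with a match were higher and 10 lower (median 0.0052), and 2 of the 27 without were higher and 3 lower (median -0.033). By motif, 4 of 8 members with YY1 letters were higher and 0 lower (median 0.13), against 8 of 56 higher and 13 lower without them (median -0.022). With ETS letters 4 of 22 were higher and 9 lower (median -0.11), against 8 of 42 higher and 4 lower without them (median -0.0057). With NRF1 letters 4 of 12 were higher and 3 lower (median 0.042), against 8 of 52 higher and 10 lower without them (median -0.028). With the E-box 0 of 5 were higher and 1 lower, and with the TATA box 1 of 4 was higher and 0 lower. Over all measured genes 33.6% were higher and 29.5% lower. Several of these groups hold few members, and the differences between them were not tested. Member windows had a median GC content of 58.3% and all windows one of 52.7%.

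**Figure D4:**
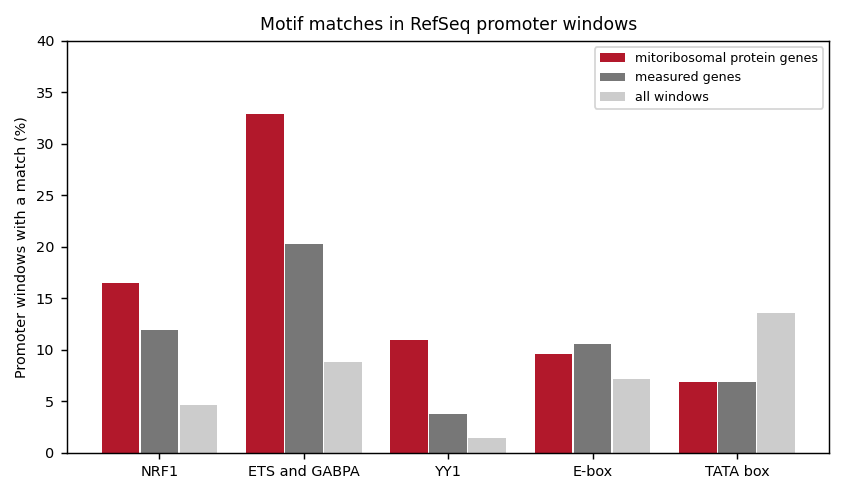
Share of RefSeq promoter windows (percent) that hold each searched motif on either strand, for mitochondrial ribosomal protein genes (red), measured genes (dark grey) and all windows (light grey). NRF1, ETS and YY1 letters were in 16.4%, 32.9% and 11.0% of member windows, above both other shares, and the TATA box share of members was near that of measured genes.

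The windows of the members past 1.5-fold against uninduced cells, and the shared start of Mrpl46 and Mrps11, are printed below on the gene's own strand, 5′ to 3′. Capitals mark the letters searched. Mrps26 (chr2:130563507-130563806, plus strand) holds overlapping NRF1 letters from positions -2 and 5 relative to the start and reversed ETS letters from -14. Mrpl53 (chr6:83108858-83109157, plus strand) holds ETS letters from -59 and, reversed, from -16. Mrps24 (chr11:5707652-5707951, minus strand) holds YY1 letters from 37, just inside the transcribed part, and reversed TATA letters from -181. Mrpl46 (chr7:78783040-78783339, minus strand) holds TATA letters from -131, far from the start, and none of the others, and 141 of its bases are also in the window of Mrps11, which runs the other way.
Mrps26: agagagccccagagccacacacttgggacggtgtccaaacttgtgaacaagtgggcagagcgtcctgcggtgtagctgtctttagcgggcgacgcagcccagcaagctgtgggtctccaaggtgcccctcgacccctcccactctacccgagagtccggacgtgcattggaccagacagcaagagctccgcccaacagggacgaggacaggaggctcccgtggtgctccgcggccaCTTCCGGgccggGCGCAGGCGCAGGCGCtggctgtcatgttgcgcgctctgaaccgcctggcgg
Mrpl53: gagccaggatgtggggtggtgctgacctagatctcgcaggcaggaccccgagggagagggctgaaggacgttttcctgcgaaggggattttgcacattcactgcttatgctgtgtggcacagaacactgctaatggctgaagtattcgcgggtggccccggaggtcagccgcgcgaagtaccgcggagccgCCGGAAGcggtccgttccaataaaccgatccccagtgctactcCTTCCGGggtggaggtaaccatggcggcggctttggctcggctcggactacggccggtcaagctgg
Mrps24: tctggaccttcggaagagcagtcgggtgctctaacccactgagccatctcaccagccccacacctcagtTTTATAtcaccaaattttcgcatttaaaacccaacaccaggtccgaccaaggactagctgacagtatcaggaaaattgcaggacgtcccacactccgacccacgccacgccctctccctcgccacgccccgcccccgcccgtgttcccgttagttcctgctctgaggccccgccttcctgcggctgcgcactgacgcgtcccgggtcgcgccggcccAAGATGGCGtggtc
Mrpl46: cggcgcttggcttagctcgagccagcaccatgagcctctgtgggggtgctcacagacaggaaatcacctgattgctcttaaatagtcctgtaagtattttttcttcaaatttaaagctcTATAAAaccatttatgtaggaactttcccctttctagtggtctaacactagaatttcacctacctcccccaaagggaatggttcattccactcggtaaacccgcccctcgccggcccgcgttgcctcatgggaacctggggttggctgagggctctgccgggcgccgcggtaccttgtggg

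Other gene lists of mitochondrial translation had median log2 ratios between 0.033 and 0.078 in grown-out cells against uninduced, where that of the members was -0.018 under the same scaling, and the difference was not tested. Counts in this and the following lists read against the shares of all measured genes. These were 30.1% higher and 30% lower at 48 h, and 33.6% and 29.5% in grown-out cells against uninduced. Of 6 measured mitochondrial ribosome proteins with other names, 1 was higher and 1 lower at 48 h and 3 were higher and 0 lower in grown-out cells against uninduced. The largest was Mrp63, with 1.17 RPKM in grown-out and 0.855 RPKM in uninduced cells. Its ratio was 1.37 (1.05 to 1.79), on 122 grown-out and 109 uninduced reads. Ptcd3, an RNA-binding small subunit protein, was at 9.57 RPKM in grown-out and 8.79 RPKM in uninduced cells. Of 11 translation factors 3 were higher and 2 lower at 48 h (median log2 ratio 0.055), and 3 higher and 2 lower in grown-out cells, with 0.033. Tufm, the mitochondrial elongation factor that brings tRNA to the ribosome, had 1.13 RPKM at 48 h and 0.807 RPKM uninduced, a log2 ratio of 0.46. Mrrf, the ribosome recycling factor, had log2 ratios of -0.20 at 48 h and 0.28 in grown-out cells.

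Of 12 mitochondrial aminoacyl-tRNA synthetase and amidotransferase genes, 2 were higher and 3 lower at 48 h and 3 higher and 2 lower in grown-out cells. Their median log2 ratios were -0.055 at 48 h and 0.054 in grown-out cells. Wars2 and Ears2 were lower at 48 h, with log2 ratios of -0.25 and -0.23. Hars2 went the other way, with 1.39, 1.54 and 1.17 RPKM uninduced, at 48 h and grown-out. Its ratio at 48 h was 1.11 (1.0002 to 1.24), with a lower bound barely over 1. Of 15 genes for ribosome assembly and rRNA modification, 4 were higher and 1 lower at 48 h, and 6 higher and 0 lower in grown-out cells. Shares over all measured genes were 30.1% higher and 30% lower at 48 h, and 33.6% and 29.5% in grown-out cells. Noa1, a GTPase of small subunit assembly, had a log2 ratio of 0.52 in grown-out cells, and C1qbp, a mitochondrial matrix protein, one of 0.30 at 48 h. Of 7 genes for mitochondrial DNA transcription and upkeep, 1 was higher and 2 lower at 48 h, and 3 higher and 1 lower in grown-out cells. The higher ones in grown-out cells were Lrpprc, at a ratio of 1.21 (1.17 to 1.25), Polg and Tfb2m. Polg had a ratio of 1.19 (1.07 to 1.33) and Tfb2m one of 1.12 (1.04 to 1.20). The lower one in grown-out cells was Tfam, which packages mitochondrial DNA and helps to start its transcription. Tfam had 2.12 RPKM in grown-out and 2.46 RPKM in uninduced cells. Polg2, lower at 48 h, had 1.31 RPKM at 48 h and 1.75 RPKM uninduced, a log2 ratio of -0.41. Its ratio was 0.748 (0.572 to 0.972), on 99.9 reads at 48 h and 141 uninduced.

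Regulators of nuclear mitochondrial genes lay, by their median log2 ratio, at -0.045 at 48 h (2 of 9 higher, 2 lower) and at 0.048 in grown-out cells (4 of 9 higher, 1 lower). Over all measured genes 30.1% were higher and 30% lower at 48 h, and 33.6% and 29.5% in grown-out cells. Nrf1 itself was lower beyond counting error at 48 h, with 2.78 RPKM at 48 h and 3.10 RPKM uninduced. Gabpa, with a log2 ratio of -0.070, was neither, and Yy1, with 0.067, was higher. Ppargc1a was higher as well, at a ratio of 1.23 (1.18 to 1.28) at 48 h and 1.22 (1.17 to 1.27) in grown-out cells. Esrra was neither at 48 h and higher in grown-out cells, at a ratio of 1.27 (1.13 to 1.42). Myc was lower at 48 h, at a ratio of 0.829 (0.774 to 0.887). It was also the lower regulator in grown-out cells, at 0.906 (0.846 to 0.971). The coactivator gene Pprc1 had 5.77 RPKM in grown-out and 3.94 RPKM in uninduced cells, a log2 ratio of 0.54. Mitochondrial chaperone and protease genes were higher in grown-out cells in 8 of 12 cases and lower in 1, with a median of 0.23. Lonp1, the main matrix protease, had a log2 ratio of 0.44 and Trap1, a matrix chaperone, one of 0.43.

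Oxidative phosphorylation subunits are the proteins that the mitochondrial ribosome's own products join. Of 72 measured genes, 34 were higher and 1 lower at 48 h (median log2 ratio 0.12), and 15 higher and 11 lower in grown-out cells, with 0.034. For this and the next lists, all measured genes had 30.1% higher and 30% lower at 48 h, and 33.6% and 29.5% in grown-out cells. The members' median level in uninduced cells was 1.45 RPKM, against 15.0 RPKM for cytosolic ribosomal protein genes. Of 77 of these, 30 were higher and 11 lower at 48 h (median 0.056), and 22 higher and 24 lower in grown-out cells (median -0.016). Ribosome biogenesis genes, which build the cytosolic ribosome, had 24 of 26 members higher and 0 lower in grown-out cells, with a median of 0.37. Cytosolic aminoacyl-tRNA synthetase genes had 16 of 20 higher and 0 lower in grown-out cells, with a median of 0.16. These differences between lists have no test, since each condition had 1 library.

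**Figure D5:**
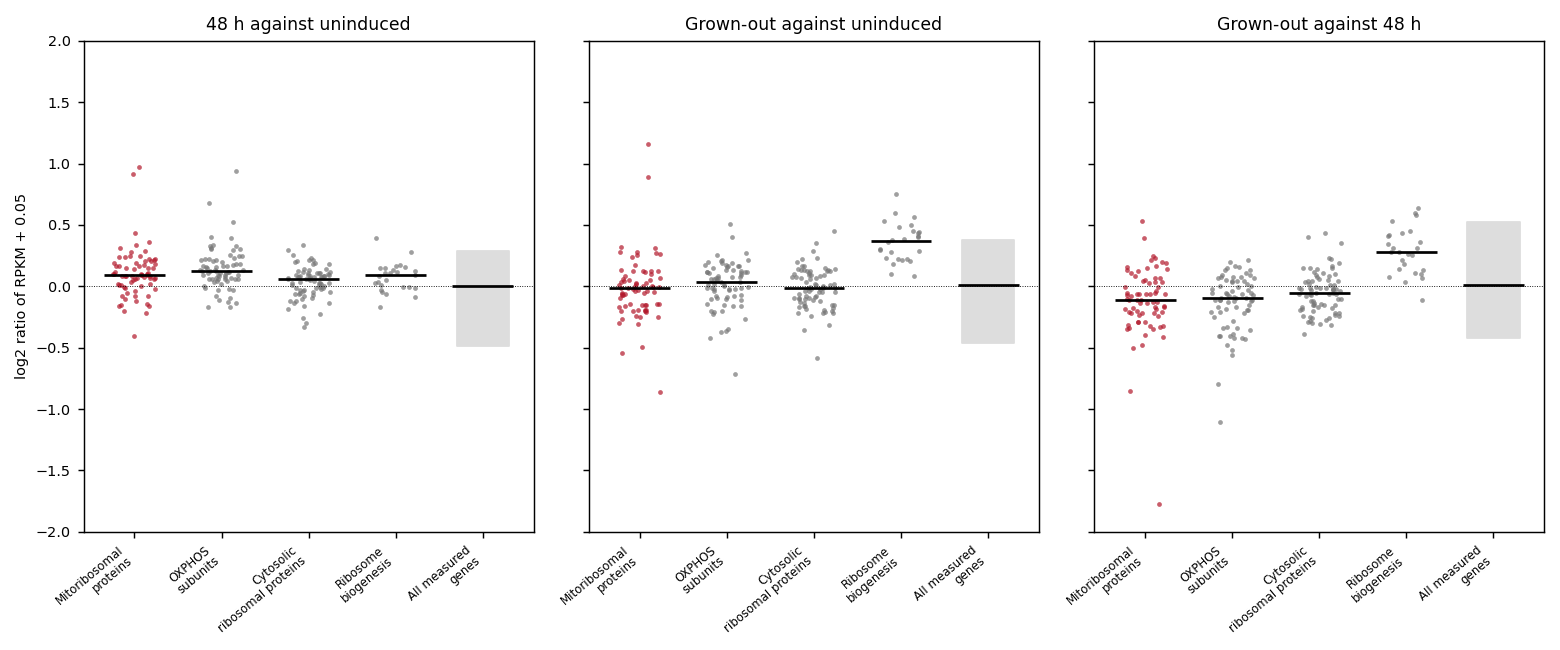
Log2 ratio of RPKM plus 0.05 for mitochondrial ribosomal protein genes (red), oxidative phosphorylation subunits (OXPHOS), cytosolic ribosomal protein genes and ribosome biogenesis genes (grey), 1 point per measured gene and 1 panel per comparison. Black lines are medians and the pale bar spans the 5th to 95th percentile of all 7915 measured genes; the members' median is 0.091 at 48 h and -0.018 in grown-out cells against uninduced, while that of ribosome biogenesis genes is 0.088 and 0.37.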

How the data were processed

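Nascent RNA was measured by Bru-seq in 1 library per condition. Per the submitters' processing notes, tools included bedtools 2.16.2, TopHat 1.4.1, Bowtie 0.12.8 and CASAVA 1.8.2, with no settings given. The deposited estimated counts are, per the file headers, reads per whole gene model; between 47.3% and 48.5% of values above 0 were whole within 0.01, and they were rounded for intervals. The deposited RPKM values divide these by model length and library total. The deposited reads-per-base signal was not used. Strand was checked on the data: models nested in a host gene of at least 2 RPKM had a median ratio to it of 0.00113 on the opposite strand (37 models) and 1.08 on the same strand (11 models).

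Model coordinates end at 197002909 on chromosome 1, past the last gene of GRCm38.p6, and were used only for distances; the notes name hg19, and the build is not given in the sources used here. All 76 members matched the GRCm38.p6 gene table by symbol. Models left out numbered 138, of which 133 had a repeated symbol and the others spanned over 3 Mb. Ratios are of RPKM, with exact conditional binomial 95% intervals; levels have exact Poisson intervals. Log2 ratios add 0.05 RPKM, which understates changes of low genes. Python 3.11.15, scipy 1.17.1, edgeR 4.0.16 and DESeq2 1.42.0 (scaling only) were used, and the interval code was tested on simulated data.

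Named members were those past 1.5-fold in any comparison, the 6 with the firmest bound in each direction against uninduced, the 4 highest and lowest, and Mrpl12, Mrps18a, Mrps18b, Mrps18c, Mrps26 and Mrpl53; from other lists up to 3 genes with large ratios were named. Exceptions, chosen after their values were seen, are Mrpl46 and Mrps11, genes named for their position or function, and the genes of mitochondrial DNA upkeep named as higher. The members and lists were chosen with earlier results of these data known.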

Additional observations from a re-analysis of the deposited data

Results flagged for a closer look

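Mrpl53 was past 1.5-fold in opposite directions against the uninduced library, higher at 48 h and lower in grown-out cells. Its log2 ratio of grown-out against 48 h was -1.77, on 32.1 reads in grown-out and 132 reads in 48 h cells. With 1 library per condition the difference between the doxycycline conditions was not tested.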

How the results depend on the processing

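With 1 library per condition no difference has a replicate check, leaving out a library was not possible, and depth limits the short genes most. No paired analysis was possible because each condition had 1 library and no result comes from a test across samples. The median log2 ratio of grown-out against uninduced cells changed sign with TMM scaling (0.0086) and with DESeq2 size factors (0.022). Both move all genes alike: the median of all genes went to 0.035 and 0.049 with them, against 0.0082, and the members stayed 0.026 to 0.027 below it. With a pseudocount of 0.5 RPKM the 48 h median was 0.067, and 1 member was past 1.5-fold at 48 h and 1 in grown-out against 48 h cells; the same 2 counts were 1 and 1 with models of at least 1000 bp. A minimum mean of 2 RPKM left 21 members, with 8 higher, 1 lower and 1 past 1.5-fold at 48 h, 4 higher, 7 lower and 1 past in grown-out against uninduced cells, and 3 higher, 9 lower and 1 past in grown-out against 48 h cells. Chosen after seeing the data, leaving out members with a same-strand model within 5000 bp upstream gave 1 member past 1.5-fold at 48 h and 0 in grown-out against 48 h cells. A minimum of 200 reads in every library, also chosen after seeing the data, gave 0 past 1.5-fold in all 3 comparisons. Among named members, the calls of Mrpl47 against uninduced in both conditions and of Mrps28 in grown-out cells were lost under either scaling, and Mrps9 in grown-out cells was called with DESeq2 size factors only. The other counts and medians kept their direction and stayed within 1.5 times or their set limit.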
